A study of Mus musculus with 6 samples.

Results

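Transcripts of the chemokines and of the chemokine receptors were followed in cells sorted from the pubertal mouse mammary gland on the activity of the gene Adgra3, which encodes the adhesion G protein-coupled receptor Gpr125. The genes were chosen by name alone: every symbol of the count tables that names a chemokine of the Ccl, Cxcl, Cx3cl or Xcl series, a receptor of the Ccr, Cxcr, Cx3cr or Xcr series, or an atypical chemokine receptor, Ackr1 to Ackr4. This gave 61 genes of 55291 listed symbols, of which 39 encode ligands and 22 encode receptors, 18 of them classical and 4 atypical. In the annotation of the mouse genome (GENCODE M21 on GRCm38) 60 of the 61 were found, the exception being Ccl21d.

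The study compared 3 conditions with 2 libraries each. Every library came from mammary glands of Adgra3-lz/+ mice, recorded as 6 weeks old, with the tissue of 5 mice pooled in a sample. These mice carry on 1 allele a β-galactosidase (lz) fused to a shortened Gpr125 and an unchanged Adgra3 on the other, so all 3 conditions, the reference included, have a single intact copy of Adgra3. Cells that bound antibodies to CD31, CD45 or Ter119 (endothelial cells, leukocytes and erythroid cells) were removed (the methods also list a stain for CD140a, a fibroblast antigen, without giving its use), cells with high surface CD49f (integrin α6, a basal cell antigen) were kept, and these were split by cleavage of FDG, a fluorogenic β-galactosidase substrate. TEB-distal libraries hold FDG-positive cells from the part of the gland with the terminal end buds (TEBs), the growing tips of the ducts. Nipple-proximal libraries hold FDG-positive cells of the older ducts near the nipple. Lymph nodes had been taken out, and each gland was cut at their position. The Gpr125-negative libraries hold FDG-negative cells, and their records name no region. β-galactosidase is stable, so sorting follows its activity and not the Adgra3 transcript of the moment.

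Chemokines are small secreted proteins that bind heparan sulfate on cell surfaces and matrix and steer cells along their gradient. Most signal through classical receptors, which couple to inhibitory G proteins and are carried mainly by leukocytes, while the atypical receptors take up or transport chemokines without that coupling and sit mainly on endothelial and stromal cells. In the mammary gland, chemokines made by epithelium and stroma are known to bring in the macrophages and eosinophils that accompany ductal growth. In bulk RNA of sorted cells, fewer cells of a type and less RNA per cell cannot be told apart.

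The ligands for the neutrophil receptor Cxcr2 show how neighbouring chemokine genes are built, and the bases before their starts are shown because Cxcl1 and Cxcl2, which differ widely between these libraries, and Cxcl3, which was close to absent, share the same letters there. All lie on chromosome 5 on the + strand (RefSeq, GRCm38.p6), and the 250 bases before each RefSeq transcript start are printed 5′ to 3′. Capitals mark the letters GGGAATTTCC, a form of the site bound by NF-κB, the factor that switches on inflammatory genes, and the AT-rich letters ATAAAAG. The TATA box letters TATAAA were found in the window of Cxcl3 and not in those of Cxcl1 and Cxcl2. The windows are chr5:90890995-90891244 for Cxcl1, chr5:90903649-90903898 for Cxcl2 and chr5:90785851-90786100 for Cxcl3.
Cxcl1: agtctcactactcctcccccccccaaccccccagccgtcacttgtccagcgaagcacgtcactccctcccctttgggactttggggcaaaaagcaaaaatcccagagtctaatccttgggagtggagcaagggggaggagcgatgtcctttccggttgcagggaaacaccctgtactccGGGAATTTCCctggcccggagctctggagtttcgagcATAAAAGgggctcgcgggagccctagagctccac
Cxcl2: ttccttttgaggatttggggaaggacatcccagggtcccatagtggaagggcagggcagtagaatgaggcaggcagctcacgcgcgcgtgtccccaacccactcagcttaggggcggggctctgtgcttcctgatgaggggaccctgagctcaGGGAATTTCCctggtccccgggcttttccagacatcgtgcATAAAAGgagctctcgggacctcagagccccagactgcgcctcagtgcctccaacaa
Cxcl3: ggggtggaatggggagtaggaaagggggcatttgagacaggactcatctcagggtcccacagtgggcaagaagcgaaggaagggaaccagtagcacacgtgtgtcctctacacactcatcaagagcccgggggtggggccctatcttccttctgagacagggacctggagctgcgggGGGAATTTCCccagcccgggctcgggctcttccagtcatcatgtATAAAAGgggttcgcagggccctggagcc
The first base of GGGAATTTCC stood 71, 97 and 73 bases before the start in Cxcl1, Cxcl2 and Cxcl3, and that of ATAAAAG 34, 57 and 29 bases before it, with 27, 30 and 34 bases between. Searched on both strands over windows of the same length, GGGAATTTCC occurred in 28 of 32851 promoter entries (0.0852%). Of the 61 genes, 46 had an entry, and those with these letters were Cxcl1, Cxcl2, Cxcl3 and Ccr3. The wider NF-κB consensus, which includes GGGAATTTCC, occurred in 3.90% of all entries and in 9 of the 53 entries of the 61 genes, and ATAAAAG in 4.83% of all entries and in 14 of those 53. These letters were picked after the sequences were read, and a match is a description and not a shown site.

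Total counts were between 20134890 and 37296640 per library, and 3 counts, the smallest level taken as shown, were worth 0.0804 to 0.149 CPM (counts scaled to a common library total). Levels below are normalized CPM, the CPM of a library total rescaled by edgeR's TMM factor, and values of a condition are given for replicate 1 and then replicate 2. Replicates differed widely, with a biological coefficient of variation of 0.967, and the Pearson correlation of log2 CPM across genes was 0.733 between the Gpr125-negative libraries, the lowest of all library pairs, against 0.791 for the TEB-distal and 0.933 for the nipple-proximal pair. Adgra3 itself stood at 35.7 and 18.6 normalized CPM in libraries labelled Gpr125-negative, at 15.0 and 4.83 in TEB-distal libraries and at 19.2 and 12.3 in nipple-proximal libraries, so the transcript does not follow the sort and conditions are named here as labelled. The basal keratin Krt5 (215 to 922) and the luminal keratin Krt8 (413 to 1659) were high in all 6 libraries. Despite the gate, all 12 endothelial markers listed exceeded 3 counts in Gpr125-negative library 1 and in nipple-proximal library 1. In the other libraries 7 to 11 did. The summed level of the 12 was 1377 and 848 normalized CPM in libraries labelled Gpr125-negative. It was 19.7 and 22.1 in TEB-distal libraries and 241 and 27.7 in nipple-proximal libraries. The pan-endothelial gene Pecam1, which encodes CD31, followed with 43.4 and 56.2, 2.46 and 5.38, and 27.0 and 2.40. Of 24 leukocyte markers, 15 to 19 exceeded 3 counts in a library, but Cd68, a lysosomal gene that is not restricted to leukocytes, made up 36.4% to 88.1% of their summed 119 to 329 normalized CPM. Without it the sums were 71.9 and 75.6, 54.0 and 39.1, and 38.5 and 34.4. Of these, Cd14 alone held 56.0 and 17.0, 6.75 and 3.85, and 8.94 and 4.57, most of the sum in Gpr125-negative library 1. Ptprc (CD45) was at 1.98 to 9.24, and Cpa3 was at 0 in every library.

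Chemokine reads were plentiful and receptor reads were few. More than 3 counts in all 6 libraries were found for 16 of the 39 ligands and 5 of the 22 receptors. At the other end, 7 ligands (Ccl1, Ccl21b, Ccl21d, Ccl24, Ccl26, Ccl27b, Xcl1) and 8 receptors (Ccr3, Ccr4, Ccr6, Cxcr1, Cxcr3, Cxcr5, Cxcr6, Xcr1) never exceeded 3 counts. The ligand sum was 464 and 1051 normalized CPM in libraries labelled Gpr125-negative, 434 and 575 in TEB-distal libraries and 830 and 515 in nipple-proximal libraries. That is 758 ± 415, 505 ± 100 and 672 ± 222 (SD, n = 2 each), and the 3 conditions overlapped. Receptor sums were 71.1 and 45.1, 30.5 and 68.3, and 25.6 and 22.8, or 58.1 ± 18.4, 49.4 ± 26.8 and 24.2 ± 1.95 (SD, n = 2 each). Both nipple-proximal libraries were below the other 4 for receptors. Without Ackr3 the receptor sums were 33.4 and 13.5, 9.20 and 13.1, and 15.7 and 12.1, and the nipple-proximal pair no longer stood apart. Per kilobase of exon, which allows genes of different length to be added, ligands exceeded receptors 7.52-fold and 38.2-fold, 19.6-fold and 12.1-fold, and 45.6-fold and 32.1-fold. The atypical receptors held most of the receptor reads in every library, and the classical receptors together reached only 4.44 to 8.78 normalized CPM.

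**Figure D1:**
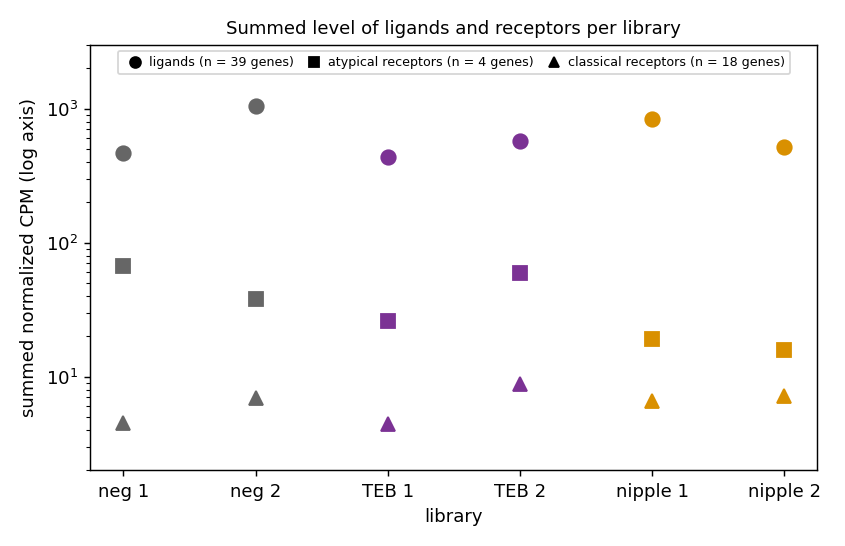
Summed normalized CPM (log axis) of the 39 ligands (circles), the 4 atypical receptors (squares) and the 18 classical receptors (triangles) in each library, with replicates 1 and 2 of Gpr125-negative (neg), TEB-distal and nipple-proximal cells along the x axis. Ligand sums were 434 to 1051, atypical receptor sums 15.7 to 66.6 and classical receptor sums 4.44 to 8.78, and both nipple-proximal squares were below the other 4.

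**Figure D2:**
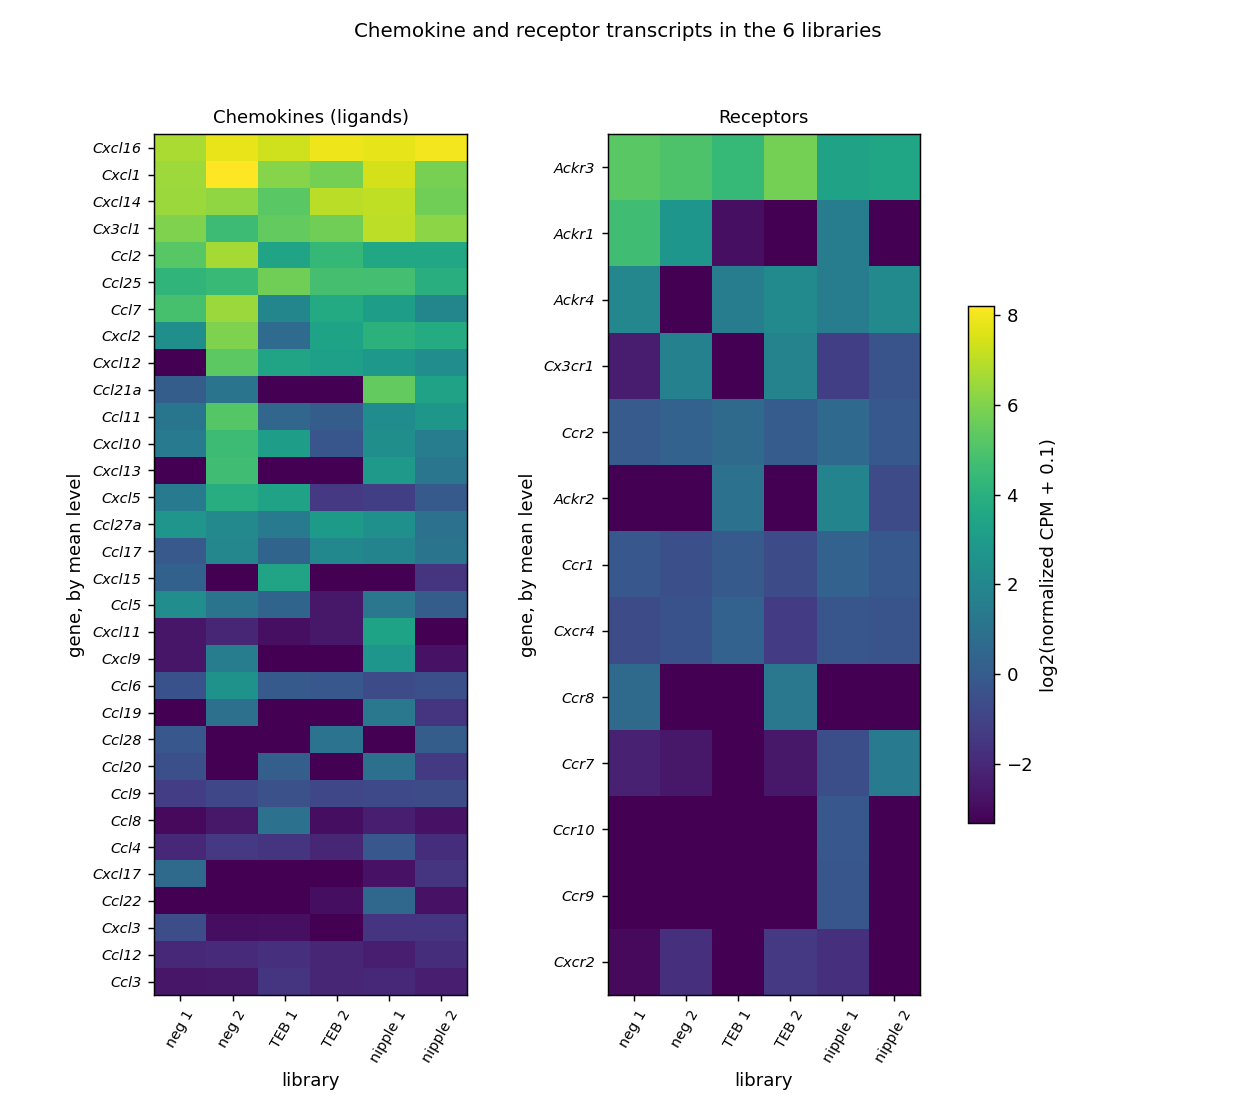
Level, as log2(normalized CPM + 0.1), of the 32 ligands and 13 of the receptors with more than 3 counts in any library, 1 row a gene ordered by mean level, 1 column a library (neg, libraries labelled Gpr125-negative). The upper ligand rows are bright in all 6 libraries, while many lower rows are bright in a single library, among them Cxcl11 in nipple-proximal library 1 and Cxcl15 in TEB-distal library 1.

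Of the 61 genes, 35 passed the low-count filter and were tested, 24 ligands and 11 receptors. By edgeR's quasi-likelihood test at a Benjamini-Hochberg adjusted p (FDR) under 0.1 and at least 2-fold, 0 of them were called in any of the 3 comparisons, and 0% of the 17268 genes tested were. Between TEB-distal and Gpr125-negative libraries 6 of the 35 had an unadjusted p under 0.05, against 6.05% of all genes, and all 6 were lower in TEB-distal cells, against 2.25% of all genes lower and 3.8% higher. Between nipple-proximal and Gpr125-negative libraries 4 did, against 3.55% of all genes, 2 of them higher and 2 lower, against 2.62% and 0.927%. Between TEB-distal and nipple-proximal libraries 4 did, against 2.21% of all genes, 1 of them higher and 3 lower, against 0.747% and 1.46%. DESeq2 on all 6 libraries called 5, 2 and 2 members in the same order, against 5.43%, 1.98% and 0.743% of the genes it tested, and on the 4 libraries of each comparison alone 2, 3 and 4, against 4%, 2.02% and 2.29%. The first 2 comparisons share the Gpr125-negative libraries, and every pair of comparisons shares a condition.

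The 24 ligands tested were lower more often than higher in TEB-distal cells. Both TEB-distal libraries were below both Gpr125-negative libraries for 7 ligands and above them for 2, against 10% and 14% of all genes tested, and the median log2 fold change was -1.28 against 0.03 over all genes. Without Gpr125-negative library 2 the low-count filter passed 30 ligands, and their median was 0. Cxcl13, with 0 counts in the libraries then compared, was fitted at 0 there. The 2 medians are thus over different sets of ligands. Gpr125-negative library 2 held the highest level of 10 of the 32 ligands with over 3 counts in any library. In nipple-proximal against Gpr125-negative libraries 4 ligands were lower without overlap and 3 higher, against 10.8% and 19.9% of all genes. The median was -0.62 against -0.003. Without Gpr125-negative library 2 it became 0.68, again over the ligands that passed the filter there. For TEB-distal against nipple-proximal libraries the counts were 7 lower and 3 higher, against 18.3% and 15.2% of all genes, and the median was -0.14 against 0.06. Among the 11 receptors tested the counts lower and higher were 1 and 0, 2 and 4, and 1 and 1 in the 3 comparisons, with medians of 0.25, 0.29 and -0.02. Genes with no overlap or a fold are described below by these values and not as called.

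Cxcl16, Cxcl14, Cx3cl1 and Ccl25 made up, with Cxcl1, the abundant chemokines of all 3 conditions. Cxcl16, a transmembrane chemokine and scavenger of oxidized lipoprotein, held the largest share of ligand reads in 5 of the 6 libraries. It was at 106 and 227 normalized CPM in libraries labelled Gpr125-negative, 166 and 240 in TEB-distal libraries and 215 and 254 in nipple-proximal libraries. These ranges overlapped, and the log2 differences from the Gpr125-negative libraries were 0.29 ± 0.69 (SE) in TEB-distal cells and 0.50 ± 0.69 in nipple-proximal cells, with FDR 1 by edgeR. Across all 6 libraries its largest level was 2.39 times its smallest, against a median of 4.81 over the 11405 genes with more than 3 counts in every library. Its exons overlap Zmynd15 (chr11:70453983-70459984 for Cxcl16), and counting without strand cannot separate reads of the overlap. Its receptor Cxcr6 had at most 1 count in every library.

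Cxcl14, an epithelial chemokine with weakly defined receptors, was at 87.5 and 77.2 in libraries labelled Gpr125-negative, 38.1 and 130 in TEB-distal libraries and 139 and 51.6 in nipple-proximal libraries. Its replicates within a Gpr125+ condition differed more than the conditions did. Cx3cl1 (fractalkine), which is anchored in the membrane and binds monocytes and macrophages, was at 63.4 and 23.9, 42.9 and 52.8, and 133 and 73.6 normalized CPM. Both nipple-proximal values were above the other 4, a log2 difference of 1.24 ± 0.73 (SE) from Gpr125-negative cells with edgeR FDR 1. Its receptor gene Cx3cr1 was at 4 and 96 counts, 0 and 103, and 7 and 15, that is, high in 1 library of each of 2 conditions. Ccl25, known from thymus and gut, was at 18.5 and 21.6, 52.3 and 27.7, and 27.3 and 14.7 normalized CPM. Both TEB-distal values were the highest of the 6, with a log2 difference of 1.00 ± 0.75 (SE) from Gpr125-negative cells and FDR 1. Its exons (chr8:4325210-4360020) overlap Elavl1, which encodes a widely expressed RNA-binding protein, and its receptor Ccr9 had 15 counts in nipple-proximal library 1 and 0 in the other libraries.

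Per kilobase of exon, the mean level over the 6 libraries was 66.6 normalized CPM for Cxcl16, 65.2 for Cxcl1, 47.7 for Cxcl14, 30.2 for Ccl7, 28.0 for Ccl2 and 16.5 for Cx3cl1. The ranges of Cxcl16 and Cxcl1 over the libraries overlapped, as did those of Ccl7 and Ccl2, so these neighbours in the order do not differ beyond their spread. Ccl25, with long annotated exons, fell to 3.63 on this scale and Cxcl12 to 1.44. Receptors were lower, with 8.28 for Ackr3, 4.08 for Ackr1 and 0.571 for Ackr4, and the highest classical receptors were Ccr8 at 0.544 and Cxcr4 at 0.374.

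Of the ligands of the monocyte receptor Ccr2, Ccl2 and Ccl7 had higher values in both libraries labelled Gpr125-negative than in all 4 Gpr125+ libraries. Neither passed the edgeR test. Values of Ccl12 and Ccl8, genes of the same stretch of chromosome 11, overlapped. Ccl2, the main monocyte chemoattractant, was at 36.3 and 101 normalized CPM there, at 10.6 and 20.4 in TEB-distal libraries and at 11.4 and 11.7 in nipple-proximal libraries. No Gpr125+ library reached a Gpr125-negative one. The log2 fold change was -2.15 ± 0.80 (SE) in TEB-distal cells, with an FDR of 0.803 by edgeR, and -2.57 ± 0.82 in nipple-proximal cells, with FDR 1. Leaving out each library in turn gave -2.82 to -1.24 and -3.26 to -1.65, with the smaller changes when Gpr125-negative library 2 was absent. Neither change passed DESeq2 on all 6 libraries either (FDR 0.188 and 0.114).

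Ccl7, which attracts monocytes and eosinophils and lies 8258 bases from Ccl2, had the same order. It was at 28.4 and 87.1 normalized CPM in libraries labelled Gpr125-negative, 3.86 and 13.2 in TEB-distal libraries and 8.64 and 3.81 in nipple-proximal libraries. The groups did not overlap, with log2 fold changes of -2.75 ± 1.01 (SE, edgeR FDR 0.803) and -3.21 ± 1.03 (SE, edgeR FDR 1), which became -1.74 and -2.18 without Gpr125-negative library 2. DESeq2 called the nipple-proximal difference (FDR 0.0850 with all 6 libraries and 0.0978 with 4) and not the TEB-distal one. Ccl11 (eotaxin), the eosinophil chemokine of the same stretch, was at 2.11 and 35.3, 1.29 and 0.953, and 4.81 and 6.83 normalized CPM. Its log2 fold change of -4.06 ± 1.55 (SE, edgeR FDR 0.803) in TEB-distal cells rested on Gpr125-negative library 2 and was -0.92 without it. DESeq2 called it with all 6 libraries (FDR 0.0412) and not with 4 (FDR 0.128). Ccl12 had 2 to 7 counts per library and was not tested, and Ccl8 had 48 counts in TEB-distal library 1 and at most 2 elsewhere. Over the block that holds these 5 genes (chr11:82035571-82116799) the summed level was 67.0 and 223, 17.8 and 34.8, and 25.1 and 22.6.

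Like Ccl2 and Ccl7, the endothelial marker sum was highest in the libraries labelled Gpr125-negative. It was at 1377 and 848 normalized CPM there, against 19.7 to 241 in the other 4. Within the Gpr125-negative pair the single endothelial markers went both ways. Library 1 had the higher sum, with Egfl7 (474 and 88.4), Cdh5, Tek, Esam, Eng, Cldn5, Vwf and Robo4 higher there. Emcn (258 and 450), Pecam1 (43.4 and 56.2), Tie1 and Kdr were higher in library 2. So were Ccl2 (36.3 and 101), Ccl7 (28.4 and 87.1) and Ccl11 (2.11 and 35.3). Within the nipple-proximal pair the endothelial sum was 241 and 27.7, while Ccl2 was at 11.4 and 11.7 and Ccl7 at 8.64 and 3.81. Fabp4, the only one of 6 adipocyte markers tested, is also made by capillary endothelium. It stood at 672 and 631, 8.89 and 17.4, and 23.5 and 1.51. In each library 3 or 4 of the other adipocyte markers were at 0, not always the same genes. Cfd had 128 counts in Gpr125-negative library 2 and at most 7 elsewhere. Fibroblast sums were 28.6 and 148, 89.9 and 175, and 69.4 and 54.6, with both TEB-distal values above both nipple-proximal ones and the Gpr125-negative pair spanning the latter. Pericyte sums overlapped (13.4 and 60.1, 10.6 and 28.3, 14.7 and 38.2). Luminal sums were 2389 and 651, 1951 and 2328, and 2113 and 1511, basal sums 3393 and 3554, 4017 and 23031, and 9449 and 14952, and erythroid sums were at most 1.32. The part of these markers in the chemokine differences was not tested.

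Among the Cxcr2 ligands, Cxcl1 (KC) was at 92.3 and 288 normalized CPM in libraries labelled Gpr125-negative, 68.1 and 54.7 in TEB-distal libraries and 174 and 56.3 in nipple-proximal libraries. TEB-distal values were both below both Gpr125-negative values, by a log2 fold change of -1.63 ± 0.85 (SE, edgeR FDR 0.883), while nipple-proximal values overlapped with all. Cxcl2 (MIP-2), 10755 bases from Cxcl1, was at 5.29 and 63.0, 1.52 and 10.04, and 17.1 and 13.5. The highest and one of the lowest values were replicates of the same label, and the conditions overlapped, except that both TEB-distal values were below both nipple-proximal ones. Cxcl3, with the same promoter letters, had 26 and 1 counts, 1 and 0, and 5 and 5, and did not pass the filter. Cxcl5 (LIX) was at 125 and 427 counts, 252 and 8, and 7 and 18, the widest spread of the genes detected in all libraries, at 53.1 times from lowest to highest normalized CPM. Cxcl15, known from lung, had 51, 272 and 5 counts in Gpr125-negative library 1, TEB-distal library 1 and nipple-proximal library 2 and 0 in the other 3. Cxcr2 itself had at most 8 counts.

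**Figure D3:**
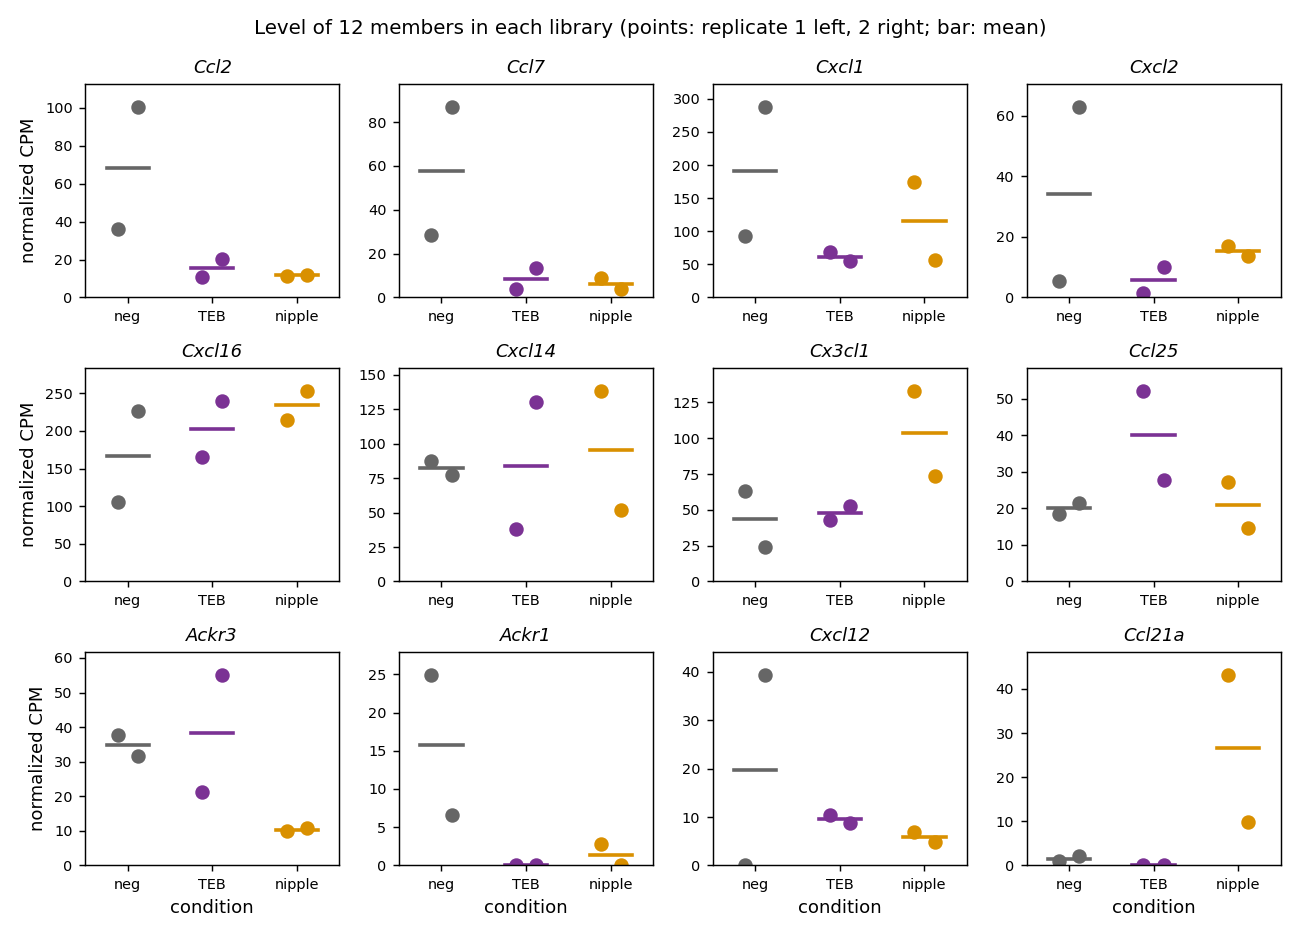
Normalized CPM of 12 ligands and receptors in each library, 1 panel a gene with its own linear axis from 0, points for replicates 1 (left) and 2 (right) and a bar for their mean, for cells labelled Gpr125-negative (neg), TEB-distal (TEB) and nipple-proximal (nipple). Ccl2 and Ccl7 lie lower in both Gpr125+ populations than in the Gpr125-negative libraries, Ackr3 is lowest in the nipple-proximal pair, and the Cxcl2 and Cxcl12 means of the Gpr125-negative pair come from points far apart.

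The lymph node chemokines Ccl21a, Ccl19 and Cxcl13 had 0 counts in both TEB-distal libraries and more than 3 in both nipple-proximal ones. Ccl21a, which with Ccl19 guides dendritic cells and T cells through the receptor Ccr7 and is made by lymphatic endothelium and stroma of lymphoid tissue, had 45 and 60 counts in libraries labelled Gpr125-negative, 0 and 0 in TEB-distal libraries and 881 and 210 in nipple-proximal libraries. The 3 conditions did not overlap. At 3 counts per library as the floor, the TEB-distal level was at least 13.7-fold lower than in Gpr125-negative cells (edgeR FDR 0.803) and at least 243-fold lower than in nipple-proximal cells (edgeR FDR 1). The nipple-proximal level, 43.3 and 9.89 normalized CPM, was above 0.968 and 2.03 by a log2 fold change of 4.15 ± 1.38 (SE, edgeR FDR 1), which was 2.72 to 4.86 with any 1 library left out. Between TEB-distal and nipple-proximal cells the fitted log2 fold change was -12.58, and -11.24 without nipple-proximal library 1, which held 881 of the counts. DESeq2 on all 6 libraries called all 3 differences, with FDR 0.00245, 5.76e-07 and 0.0728. Ccl21a (chr4:42772860-42773993) has near-identical copies, Ccl21b and Ccl21d, both at 0 here, so which copy gave the reads is uncertain.

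Ccl19, on the same stretch of chromosome 4, had 0 and 54 counts, 0 and 0, and 48 and 5, and its TEB-distal level was at least 11.8-fold lower than the nipple-proximal one (edgeR FDR 1). Cxcl13, the B cell chemokine, had 0 and 744 counts, 0 and 0, and 151 and 46, that is, at least 43.7-fold lower in TEB-distal than in nipple-proximal cells (edgeR FDR 1). Against the Gpr125-negative libraries it was at least 115-fold lower (edgeR FDR 0.803), all of it from Gpr125-negative library 2. DESeq2 on all 6 libraries called Cxcl13 against Gpr125-negative (FDR 7.46e-05) and against nipple-proximal cells (FDR 0.00111). Its fitted log2 fold changes were -24.3 and -22.7, against -11.5 and -10.1 by edgeR. With 0 counts in both TEB-distal libraries the data set no finite fold, and these FDRs rest on such fits. Of the receptors, Ccr7 had 5 and 2 counts, 0 and 2, and 12 and 57, a nipple-proximal level 45.6 times the TEB-distal one (95% counting interval 12.2 to 384, exact Clopper-Pearson, edgeR FDR 1). Cxcr5, the receptor of Cxcl13, had at most 1 count.

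Markers of lymphatic endothelium and B cells stood beside these genes unevenly. Prox1, which defines lymphatic endothelium, was at 11.6 and 23.7 normalized CPM in libraries labelled Gpr125-negative, 0 and 0.102 in TEB-distal libraries and 1.52 and 0.141 in nipple-proximal libraries, and Lyve1 at 0.452 and 6.06, 0.351 and 2.01, and 18.0 and 1.18. The sum of the 6 lymphatic markers was 167 and 367, 363 and 109, and 141 and 70.1, most of it in the TEB-distal libraries from Reln, without which it was 100.1 and 264, 31.8 and 17.6, and 72.8 and 12.8. Of the B cell genes, Ms4a1 had 24 counts in nipple-proximal library 2, the library with the most Ccr7, and at most 1 elsewhere, whereas Cd79a was highest in TEB-distal library 2 (146 counts, against 0 to 38 in the others), where Ccr7 had 2 counts and Cxcl13 had 0. Ccl21a was thus highest where Lyve1 was highest but not where Prox1 was. Within the nipple-proximal pair, Ccl21a and the markers Prox1, Lyve1, Flt4, Pdpn, Mmrn1 and Reln were all higher in library 1. The part of these markers in the Ccl21a, Cxcl13 and Ccr7 differences was not tested.

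**Figure D4:**
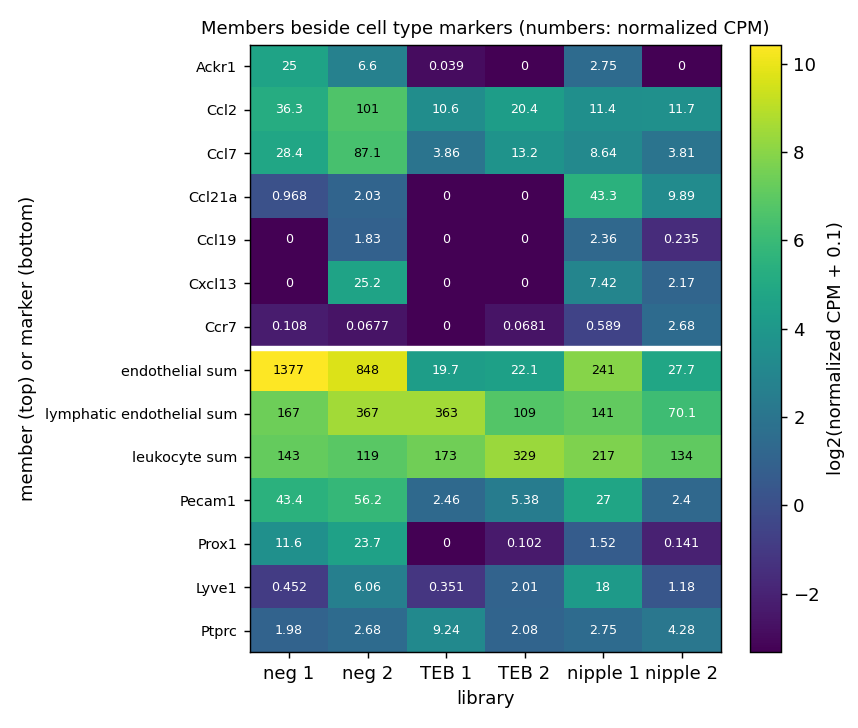
Normalized CPM printed in each cell, with colour for log2(normalized CPM + 0.1), of 7 ligands and receptors (top) and of cell type marker sums and single markers (below the white line) in the 6 libraries (neg, libraries labelled Gpr125-negative). Ackr1, Ccl2 and Ccl7 are highest in the Gpr125-negative pair, as is the endothelial sum (1377 and 848), whereas Ccl21a is highest in nipple-proximal library 1, as is Lyve1.

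The interferon-inducible ligands of Cxcr3, which lie together within 44.1 kb (chr5:92321347-92365485), were each high in 1 library or a pair of libraries rather than in a condition. Cxcl10 (IP-10) was at 2.65 and 23.8 normalized CPM in libraries labelled Gpr125-negative, 8.50 and 0.749 in TEB-distal libraries and 5.30 and 2.83 in nipple-proximal libraries, and the conditions overlapped. Cxcl9 had 3 and 85 counts, 0 and 0, and 134 and 1. Its TEB-distal level was at least 30.2-fold lower than the nipple-proximal one (edgeR FDR 1), a difference that rested on nipple-proximal library 1. DESeq2 called it with 4 libraries (FDR 0.0270), and with all 6 it called Cxcl9 between TEB-distal and Gpr125-negative cells (FDR 0.0895), which rested on Gpr125-negative library 2. Cxcl11, annotated as a polymorphic pseudogene in this reference strain, had 209 counts in nipple-proximal library 1 and at most 4 in any other, and DESeq2 called it on 4 libraries between TEB-distal and nipple-proximal cells (FDR 0.0676). Cxcr3 had at most 1 count.

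Cxcl12, which holds stem and immune cells in their niches through Cxcr4, was at 0 and 39.5 normalized CPM in libraries labelled Gpr125-negative, 10.4 and 8.85 in TEB-distal libraries and 6.97 and 4.94 in nipple-proximal libraries. The replicates labelled Gpr125-negative thus stood at both ends of the range, with 0 and 1165 counts, and no difference between conditions could be read from them. TEB-distal values were both above nipple-proximal ones, by a log2 difference of 0.69 ± 2.14 (SE, edgeR FDR 1). Cxcr4 was low and even, at 9 to 29 counts in every library.

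Ackr3 (Cxcr7), the atypical receptor that takes up Cxcl12, was the leading receptor in every library, with 38.6% to 80.8% of receptor reads. It was at 37.7 and 31.6 normalized CPM in libraries labelled Gpr125-negative, 21.2 and 55.2 in TEB-distal libraries and 9.87 and 10.7 in nipple-proximal libraries. Both nipple-proximal values were below the other 4. The log2 fold change was 1.89 ± 0.77 (SE, edgeR FDR 1) for TEB-distal against nipple-proximal cells, 1.03 to 2.49 with any 1 library left out, and -1.75 ± 0.77 (SE, edgeR FDR 1) for nipple-proximal against Gpr125-negative cells. TEB-distal and Gpr125-negative libraries overlapped, at 0.14 ± 0.75 (SE). No DESeq2 fit called Ackr3.

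Ackr1 (DARC), which carries chemokines across venular endothelium, had 1160 and 195 counts in libraries labelled Gpr125-negative, 1 and 0 in TEB-distal libraries and 56 and 0 in nipple-proximal libraries. Its Gpr125-negative level was 981 times the TEB-distal one (95% counting interval 176 to 38774, exact Clopper-Pearson, edgeR FDR 0.803), and DESeq2 called it with all 6 libraries and with 4 (FDR 0.00233 and 0.000235). The endothelial sum moved with Ackr1, also between the nipple-proximal replicates (241 and 27.7 for 56 and 0 counts), and its part was not tested. Exons of Ackr1 overlap Cadm3. Ackr2 (D6), which degrades inflammatory CC chemokines, had 0 and 0 counts, 48 and 0, and 72 and 11. It was at least 24.4-fold higher in nipple-proximal than in Gpr125-negative cells (edgeR FDR 1), called by DESeq2 on 4 libraries (FDR 0.0396) and not on 6 (FDR 0.155). Most of these counts were in nipple-proximal library 1, without which the fitted log2 fold change fell from 8.87 to 6.99. Ackr4, the scavenger of Ccl19, Ccl21a and Ccl25, was at 3.92 and 0 normalized CPM, 2.85 and 4.36, and 2.90 and 4.43, so that 5 libraries lay within 2.85 to 4.43 and Gpr125-negative library 2 had 0 counts. Its exons overlap Acad11.

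The classical receptors with more than 3 counts in every library included Ccr1 and Ccr2, which monocytes and macrophages carry, and Cxcr4, and the counts of these were low and even. Ccr2, the receptor of Ccl2 and Ccl7, had 42 and 33 counts in libraries labelled Gpr125-negative, 38 and 27 in TEB-distal libraries and 29 and 17 in nipple-proximal libraries. Ccr1 had 36 and 18, 22 and 16, and 23 and 17. Highest and lowest normalized CPM differed 1.85-fold for Ccr2, 2.07-fold for Ccr1 and 3.69-fold for Cxcr4, against a median of 4.70-fold over the 852 genes with more than 3 and under 100 counts in every library. None of Ccr1, Ccr2 and Cxcr4 had a fitted log2 fold change over 0.48 in size between conditions, with SEs of 1.62 to 1.72. Ccr2 stood at 0.800 to 1.48 normalized CPM, and its interval is wide at this depth. Leukocyte markers were not all even: Cd53 (36 to 61 counts), Laptm5 (36 to 85) and Cd52 (12 to 23) were, while Ptprc (56 to 237), Fcer1g (46 to 439) and Csf1r (23 to 506) were not. The part of leukocytes in these counts was not tested.

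The remaining classical receptors came and went between replicates. Ccr8 had 69 and 0 counts, 0 and 69, and 0 and 0, and Ccr10, the receptor of Ccl27a and Ccl28, had 16 counts in nipple-proximal library 1 only. Ccl27a, a skin chemokine, was at 6.41 and 4.17, 2.69 and 7.66, and 5.45 and 1.93 normalized CPM, though it has a near-identical copy, Ccl27b at 0, and its exons overlap Il11ra1. Ccl28, a mucosal chemokine, had counts above 0 in 1 library of each condition (36, 59 and 20). Ccl20 had 28 and 0, 26 and 0, and 37 and 6 counts, and its receptor Ccr6 had 0 of 20134890 to 37296640 counts, which allows up to 0.0804 to 0.149 CPM. Ccl5, a T cell and monocyte chemokine, was at 4.88 and 2.07, 1.21 and 0.0681, and 2.26 and 0.942 normalized CPM, lower in both TEB-distal than in both Gpr125-negative libraries by a log2 fold change of -2.44 ± 1.91 (SE, edgeR FDR 1). Ccl6 was at 178 counts in Gpr125-negative library 2 and 11 to 30 elsewhere, and the Ccr4 ligand Ccl17 was at 31 to 120. The macrophage chemokines Ccl3 and Ccl4 stayed at 2 to 16 counts.

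Genes around the chemokines were taken from 4 lists, and edgeR called 0 of their genes in each comparison. The 14 tested chemotactic factors outside the naming rule had a median log2 fold change of -1.41 in TEB-distal against Gpr125-negative cells. Over all genes it was 0.03. At an unadjusted p under 0.05, 3 of the 14 were lower in TEB-distal cells, against 2.25% of all genes. They were Cd200, an inhibitory ligand for macrophages (log2 fold change -3.24 ± 1.09 SE), Il6 (-6.69 ± 2.54 SE), whose high value was 128.5 normalized CPM in Gpr125-negative library 2 against 0.452 in its replicate, and the decoy receptor gene Ccrl2, named after its value was seen (-5.58 ± 2.24 SE). Gpr35, a receptor to which Cxcl17 binding has been ascribed, was at 3.49 and 6.88 normalized CPM in libraries labelled Gpr125-negative, 6.32 and 7.05 in TEB-distal libraries and 34.3 and 56.7 in nipple-proximal libraries. Nipple-proximal values were far above the other 4, by a log2 fold change of 3.13 ± 0.86 (SE, edgeR FDR 1) over Gpr125-negative and of 2.77 over TEB-distal cells (-2.77 ± 0.85 SE for TEB-distal against nipple-proximal, edgeR FDR 1). Cxcl17 itself had 68 counts in Gpr125-negative library 1 and at most 5 in any other. In the second comparison the list held 1 gene at that p, Gpr35, against 3.55% of all genes. The median was -0.06, against -0.003 over all genes. In the last it held 2, Gpr35 and the Mif receptor Cd74 (-2.23 ± 0.89 SE), against 2.21% of all genes. The median there was -1.19, against 0.06. Between nipple-proximal and Gpr125-negative cells Csf2 had the next smallest p (FDR 1).

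Of 26 tested genes of receptor signalling, Rgs16, a brake on inhibitory G protein signalling, was at 28.5 and 72.8 normalized CPM in libraries labelled Gpr125-negative, 3.55 and 0.783 in TEB-distal libraries and 3.14 and 1.41 in nipple-proximal libraries. The fitted log2 fold changes were -4.55 ± 1.17 (SE) and -4.47 ± 1.16 (SE), with edgeR FDR 0.803 and 1, and DESeq2 called both. Elmo1, a guanine nucleotide exchange partner of Dock2, differed by -1.85 ± 0.92 (SE) and -2.21 ± 0.93 (SE), with edgeR FDR 0.864 and 1. The list held 1, 2 and 0 genes at an unadjusted p under 0.05 in the 3 comparisons, against 6.05%, 3.55% and 2.21% of all genes. Its medians were 0.12, 0.09 and -0.10, against 0.03, -0.003 and 0.06. Rgs2 (2.22 ± 1.11 SE) and Ptk2b (1.55 ± 0.93 SE) had the smallest p for TEB-distal against nipple-proximal cells.

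None of the 19 tested genes of chemokine induction had an unadjusted p under 0.05, against 6.05%, 3.55% and 2.21% of all genes. The medians were -0.10, -0.12 and -0.35, against 0.03, -0.003 and 0.06 over all genes. Relb, an NF-κB subunit, differed by -0.79 ± 0.74 (SE) in TEB-distal against Gpr125-negative and by -1.05 ± 0.75 (SE) in TEB-distal against nipple-proximal cells, and Il17ra by 0.67 ± 0.63 and Hif1a by 0.80 ± 0.87 (SE) between nipple-proximal and Gpr125-negative cells. Among the 16 genes of glycosaminoglycan carriers, on which chemokines are held, Sdc3 was the gene with an unadjusted p under 0.05 (edgeR FDR 1) in nipple-proximal against Gpr125-negative cells, with 68.9 and 69.4 against 18.5 and 14.1 normalized CPM, and Gpc4 was next (1.51 ± 0.86 SE). The list had 0, 1 and 0 genes under 0.05, against 6.05%, 3.55% and 2.21% of all genes. Its medians were -0.01, 0.28 and -0.25, against 0.03, -0.003 and 0.06. Sdc2 (1.44 ± 0.75 SE) and Hspg2 (1.57 ± 0.97 SE) had its smallest p for TEB-distal against Gpr125-negative cells, and Gpc3 (1.97 ± 1.00 SE) and Ndst1 (-1.43 ± 0.89 SE) for TEB-distal against nipple-proximal cells.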

How the data were processed

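RNA-seq libraries (SMART-Seq HT, full-length cDNA without molecular identifiers) were made from 6 samples in 3 conditions. The authors aligned reads to mm10 with STAR (2.7.3 per the labels, an earlier version in the study's methods), counted them per gene with HTSeq without regard to strand, and deposited raw counts, 1 table a library. The labels give an age of 6 weeks and 5 mice a sample, whereas the methods give a wider range of ages and fewer mice per preparation. The annotation release used for counting is not given in the sources used here.

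Counts of all 6 libraries were fitted in a single model of condition in edgeR 4.0.16 (R 4.3.3) with filterByExpr, TMM, glmQLFit with robust estimation and glmQLFTest. Benjamini-Hochberg adjustment covered all 17268 genes tested, and a call needed an FDR under 0.1 and at least 2-fold, the study's thresholds for Gpr125+ against Gpr125-negative cells (it used 0.05 between the Gpr125+ populations, tried here as an alternative). The SE of a log2 fold change was taken from its F statistic. DESeq2 1.42.0, DESeq2 size factors, other filters and samples, a replicate block and leaving out each library were alternatives. The fits were tested on simulated data. Where both libraries of a condition had 0 counts, folds were computed against 3 counts per library and written as bounds, and with 1 to 3 counts in all as a ratio with an exact 95% interval. Floors and intervals cover counting error only. With 2 against 2 libraries the smallest exact two-sided permutation p is 0.333, so no such test is given, and whether the replicates were separate sorts is not stated, so that p-values measure the spread between these samples, which may be technical.

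Named with values were the 10 ligands and 8 receptors with the highest mean, members with an unadjusted p under 0.05, members at or under 3 counts in both libraries of a condition and above in both of another, the atypical receptors, the receptors of named ligands, and the 2 genes of each pathway list with the smallest p. Other members are given by their counts. The members, pathway lists and marker lists (leukocyte, endothelial, lymphatic endothelial, fibroblast, pericyte, basal, luminal, adipocyte, erythroid) were chosen with earlier results of these data known. Positions are from GENCODE M21 and promoters from RefSeq (GRCm38.p6). Protein sequences were not used here, and the values of some genes are not reported here.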

Additional observations from a re-analysis of the deposited data

Results flagged for a closer look

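Ccl21a lay on opposite sides of the same reference in the Gpr125+ populations, the libraries labelled Gpr125-negative. Both TEB-distal libraries (0 and 0 counts) were below, and both nipple-proximal libraries (881 and 210 counts) above, both reference libraries (45 and 60 counts), so that the TEB-distal level was at least 243-fold lower than the nipple-proximal one. The fitted log2 fold change of -12.58 was -11.24 without nipple-proximal library 1. The difference between the Gpr125+ populations itself had an FDR of 1 by edgeR's quasi-likelihood test, and an FDR of 5.76e-07 by DESeq2 on all 6 libraries.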

How the results depend on the processing

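The edgeR count of 0 members called held with DESeq2 size factors, with the 4 compared libraries, without robust estimation and at an FDR under 0.05. DESeq2 on all 6 libraries called 5 members for TEB-distal against Gpr125-negative, 2 for nipple-proximal against Gpr125-negative and 2 for TEB-distal against nipple-proximal cells (943, 321 and 129 genes in all), and on the 4 compared libraries 2, 3 and 4 (667, 317 and 360 genes). Testing all genes with at least 1 count called 3 (Ackr1, Ccl21a, Cxcl13), 0 and 2 (Ccl21a, Cxcl13) members (137, 58 and 39 genes). Leaving out each library in turn gave 0 to 3, 0 and 0 to 1 members and 0 to 747, 0 to 335 and 0 to 12 genes, the highest without Gpr125-negative library 1 (747 and 335) and nipple-proximal library 2 (12). The 3 members called without Gpr125-negative library 1 were Ccl11, Ccl21a and Cxcl13, and the 1 called without nipple-proximal library 2 was Ccl21a. There the lone library is assumed to vary like the other conditions. Of 180 alternative values of the log2 fold changes with an unadjusted p under 0.05, 155 kept their side of the threshold and 25 passed it, and none changed sign, though that of Cxcl13 between TEB-distal and Gpr125-negative cells was 0 without Gpr125-negative library 2. That of Ackr1 in the same comparison went from -9.42 to -8.26 without Gpr125-negative library 1 and to -11.86 without TEB-distal library 1, and that of Cxcl13 between TEB-distal and nipple-proximal cells from -10.11 to -9.05 without nipple-proximal library 1.

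Deviations of same-numbered libraries correlated at -0.0347, 0.194 and -0.00495 in the 3 comparisons. Each value rests on only 2 pairs, so whether the replicate numbers pair the libraries cannot be decided from them. With the replicate number as a block 0 members and 0 genes were called in each, as in the fit without it.

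Without Cxcl16 the ligand sum was 302 normalized CPM in TEB-distal cells and 438 in nipple-proximal cells. In Gpr125-negative cells the full ligand sum was 758 normalized CPM, of which Cxcl16 held 166, both as means, so that mean stayed the highest. Its place above the nipple-proximal mean rested on Gpr125-negative library 2 (1051, of which Cxcl16 held 227). Gpr125-negative library 1 (464, of which 106) was below nipple-proximal library 1 (830, of which 215) with or without Cxcl16. Without Ackr3 the receptor sum was 23.4, 11.2 and 13.9 normalized CPM in Gpr125-negative, TEB-distal and nipple-proximal cells. Taking more than 3 counts in either library instead of both raised the ligands detected from 19 to 29, 19 to 24 and 23 to 30 and the receptors from 7 to 11, 6 to 10 and 9 to 13 in Gpr125-negative, TEB-distal and nipple-proximal cells. The causes were not tested. At these depths a level under 0.0804 to 0.149 CPM is at or under the floor of 3 counts.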

Other observations

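Several chemokine genes were near 0 in a library and well above it in its replicate. Counts of at most 3 in one replicate and at least 20 in the other were found for 9 of the 35 members tested in libraries labelled Gpr125-negative (25.7%, against 18.5% of all 17268 genes), for 7 in the TEB-distal (20%, against 9.72%) and for 3 in the nipple-proximal libraries (8.57%, against 2.02%). In the Gpr125-negative pair these were Ackr4, Ccl19, Ccl20, Ccl28, Ccr8, Cxcl12, Cxcl13, Cxcl15 and Cxcl9. In the TEB-distal pair they were Ackr2, Ccl20, Ccl28, Ccl5, Ccr8, Cx3cr1 and Cxcl15, and in the nipple-proximal pair Ackr1, Ccl28 and Cxcl9.

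Ccl9, a macrophage chemokine, was the reverse case. It had 15 and 13 counts in libraries labelled Gpr125-negative, 16 and 13 in TEB-distal libraries and 10 and 11 in nipple-proximal libraries. The variance of these counts over the 6 libraries was 0.400 of their mean, against 2.49 for Ccr1 and 2.52 for Ccr2, and its highest and lowest normalized CPM differed 1.93-fold. Of the 852 genes with more than 3 and under 100 counts in every library, 37 spread by at most 2-fold.

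Chemokine genes that lie together were summed over their block. The block from Cxcl5 to Cxcl2 (chr5:90759360-90905938) stood at 102 and 366 normalized CPM in libraries labelled Gpr125-negative, 90.1 and 65.0 in TEB-distal libraries and 191 and 71.1 in nipple-proximal libraries, most of it Cxcl1. That from Ccl5 to Ccl4 on chromosome 11 stood at 6.07 and 8.87, 3.16 and 1.57, and 4.22 and 2.35, lower in both TEB-distal than in both Gpr125-negative libraries. These sums were not tested.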
